A study of Mus musculus with 6 samples.

Results

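The subject is a set of 9 genes that encode ligands and receptors of epidermal growth factor (EGF) signalling, read in RNA from mouse hypothalamic samples that carry the label paraventricular nucleus. Its members are 5 ligand genes (Tgfa, Hbegf, Nrg1, Nrg2 and Nrg3) and 4 receptor genes (Egfr, Erbb2, Erbb3 and Erbb4), taken by gene name from the 51826 genes of the deposited table. Each name matched 1 row, and all 9 passed the filter on low counts that left 18956 genes to test. The 3 KO libraries came from mice labelled as glutamatergic neuronal ADAM17 knockouts, replicates 1 and 2 from males and replicate F1 from a female, and the 3 WT libraries came from wild-type mice with the same arrangement of sexes. Where 3 values are given for a genotype, they stand for replicates 1, 2 and F1 in that order. Neither genotype has a labelled treatment, and the labels give no age, no strain, no Cre driver and no statement on pooling, so the spread between libraries may be technical in part. The design text states that the effect of the knockout on gene expression in this nucleus was to be measured.

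The EGF family signals through the ErbB receptors, membrane tyrosine kinases that work as pairs. Most ligands are made as membrane-anchored precursors whose outer part, which holds the EGF-like module, is cut off by metalloproteases. ADAM17 is the main such protease for TGF-alpha and HB-EGF and also cleaves neuregulin precursors. EGFR binds TGF-alpha and HB-EGF, ERBB3 and ERBB4 bind neuregulins, and ERBB2 binds no known ligand and serves as a partner. In brain, EGFR is known from glia and progenitors, ERBB3 from the oligodendrocyte lineage and ERBB4 from GABA interneurons.

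The EGF-like module itself is shown for the ligand genes that differed most in level among libraries, Tgfa and Nrg1, and for the most abundant one, Nrg3. These are coding stretches of GENCODE M21 transcripts (GRCm38), written 5′ to 3′ on the coding strand from the first to the last cysteine codon of the module, with the 6 cysteine codons in capitals. The stretches are 108 bases long in Tgfa (transcript Tgfa-201, chromosome 6), 120 bases in Nrg1 (Nrg1-201, chromosome 8) and 117 bases in Nrg3 (Nrg3-201, chromosome 14).
Tgfa: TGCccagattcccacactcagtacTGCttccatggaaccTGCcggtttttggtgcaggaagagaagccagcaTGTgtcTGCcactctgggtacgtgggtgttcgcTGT
Nrg1: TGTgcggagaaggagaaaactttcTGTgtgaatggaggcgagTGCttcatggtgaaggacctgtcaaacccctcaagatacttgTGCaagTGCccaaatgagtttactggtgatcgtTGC
Nrg3: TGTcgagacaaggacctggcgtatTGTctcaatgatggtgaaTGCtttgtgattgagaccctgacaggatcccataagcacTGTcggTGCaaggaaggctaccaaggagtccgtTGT

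Libraries held between 35114426 and 54421330 counts. Levels below are CPM, each count set against its library total after TMM scaling (trimmed mean of M), and TPM, the authors' own values, which divide by transcript length and so allow genes to be compared. KO replicate 1 stood apart, with 20.63% of its counts from mitochondrially encoded genes against 7.22% to 9.2% in the other 5 libraries. WT replicate F1 had the lowest summed level of the genes listed for cortex and hippocampus and of those listed for striatum. The label of the tissue was checked against marker genes. Sim1, a transcription factor that defines the paraventricular nucleus, stood at 1.01, 0.626 and 1.1 CPM in the KO libraries and at 1.24, 0.683 and 2.51 CPM in the WT libraries. Slc17a7, the vesicular glutamate transporter of cortex and hippocampus, averaged 825 CPM in KO and 756 CPM in WT libraries, whereas Slc17a6, the transporter of hypothalamus and thalamus, averaged 69.1 CPM in KO and 82.5 CPM in WT libraries. The 10 genes listed for the labelled nucleus summed to 180, 113 and 131 CPM in the KO libraries and 172, 109 and 205 CPM in the WT libraries, and none was at 0. The peptide hormone genes Avp and Oxt lead that list by TPM. Avp, the vasopressin gene, averaged 9.14 CPM in KO and 24.0 CPM in WT libraries, and Oxt, the oxytocin gene, 9.14 CPM in KO and 19.4 CPM in WT libraries. By their means, Avp, Oxt and Sim1 made up the smaller part of the summed CPM of the list. The other genes listed are Otp, Crh, Trh, Pou3f2, Brs3, Mc4r and Ntng1, and how far each is particular to this nucleus was not tested. Transcripts of genes listed for this nucleus were thus detected in every library, together with abundant transcripts of other forebrain regions.

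Read per length, the ligand genes outweighed the receptor genes in every library. Summed TPM of the 5 ligands was 74.99 ± 6.56 in KO and 76.8 ± 10.3 in WT libraries (SD, n = 3 each), and that of the 4 receptors was 23.1 ± 3.16 in KO and 28.1 ± 1.19 in WT libraries. Nrg3, a neuregulin largely restricted to the nervous system, led with 28.2 ± 1.64 TPM (SD over the 6 libraries), followed by Tgfa (21.7 ± 8.71), the receptor gene Erbb4 (15.0 ± 1.72), Hbegf (10.9 ± 2.41), Nrg1 (7.98 ± 2.05), Nrg2 (7.14 ± 1.36), Erbb3 (4.86 ± 1.16), Egfr (4.12 ± 0.67) and Erbb2 (1.58 ± 0.31). The ranges of neighbours in this order overlapped, except that Egfr, at 3.19 TPM or more, lay above Erbb2, at 2.02 TPM or less. Within single libraries Erbb4 exceeded Hbegf, Hbegf exceeded Nrg1 and Nrg2 exceeded Erbb3 in 6 of 6, whereas Nrg1 exceeded Nrg2, and Erbb3 exceeded Egfr, in 4 of 6. Nrg3 exceeded Tgfa in 5 of 6, and so did Tgfa Erbb4.

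**Figure D1:**
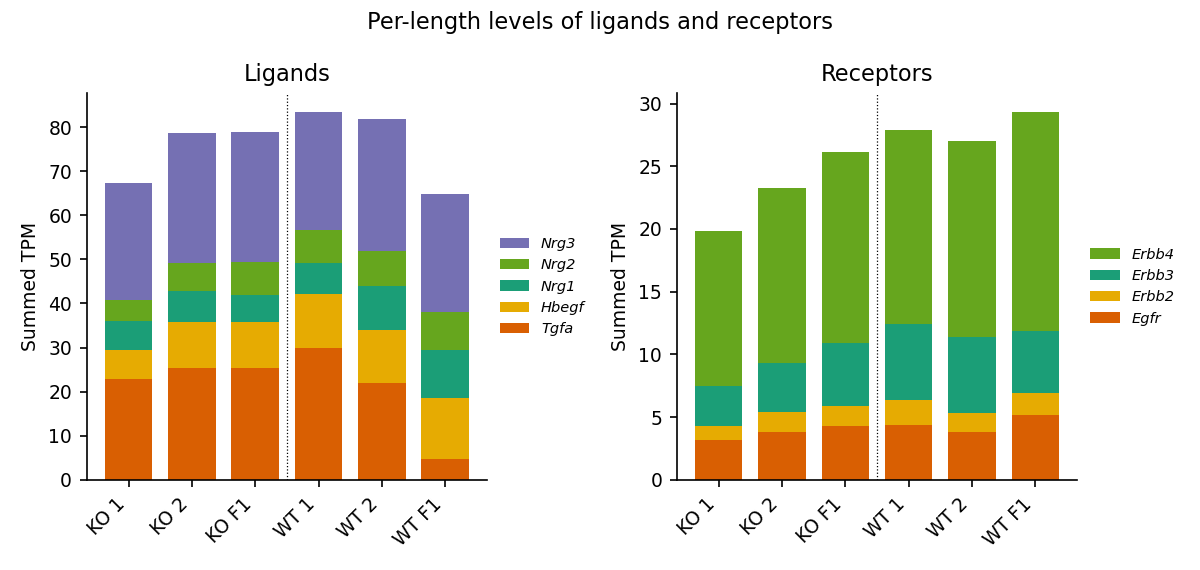
Stacked bars give the authors' TPM of the 5 ligand genes (left panel) and the 4 receptor genes (right panel) in each library, KO libraries left of the dotted line and WT libraries right of it. Nrg3 and Tgfa make up most of the ligand bars except in WT F1, where Tgfa is at 4.81 TPM, and Erbb4 makes up most of each receptor bar.

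Erbb4 alone supplied most of the receptor transcripts. Its share of the summed receptor TPM was 60.2% ± 2.04 in KO and 57.6% ± 1.99 in WT libraries (SD, n = 3 each). Erbb3 supplied 17.2% ± 1.56 in KO and 20.4% ± 3.0 in WT libraries, Egfr 16.4% ± 0.24 in KO and 15.8% ± 1.74 in WT libraries, and Erbb2 6.12% ± 0.69 in KO and 6.18% ± 0.93 in WT libraries. Among ligands Nrg3 supplied 38.1% ± 1.14 in KO and 36.7% ± 4.56 in WT libraries, and Tgfa 32.7% ± 0.97 in KO and 23.3% ± 14.5 in WT libraries. The wide WT spread of Tgfa came from WT replicate F1, where its share was 7.4%.

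Knockout and wild-type libraries were compared with edgeR's quasi-likelihood test with genotype and sex as terms. None of the 9 members passed: at an adjusted p under 0.05 the count was 0 of 9, beside 0.00528% (1 gene) of the 18956 genes tested. At an unadjusted p under 0.05 it was also 0 of 9, where 6.38% of all genes lay under that limit (2.53% lower and 3.85% higher in KO), and DESeq2 called 0 of 9, where it called 0.396% of all genes. The log2 fold change, KO minus WT, was above 0 for 5 members and below 0 for 4, beside 50.6% of all genes below 0, with a median of 0.08 beside a median of 0.00 over all genes tested. The data come from whole tissue, so fewer cells of a type and less RNA per cell cannot be told apart in any of these values.

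**Figure D2:**
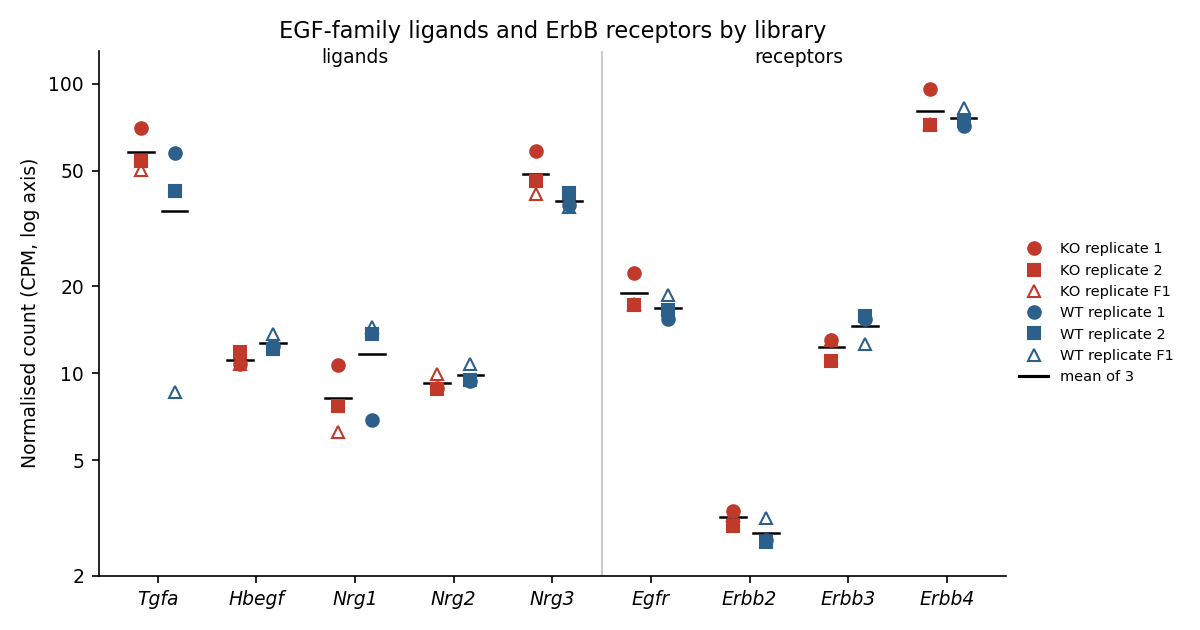
Each point is the normalised count (CPM, log axis) of 1 member in 1 library, KO in red to the left and WT in blue to the right of each gene's tick, with open triangles for the female libraries and a bar at the mean of 3. Tgfa in WT replicate F1 (8.59 CPM) lies far from the other 5 libraries, and Hbegf has all 3 KO points below all 3 WT points.

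Tgfa encodes transforming growth factor alpha, a ligand of EGFR (ENSMUSG00000029999, chromosome 6, 86195223 to 86275719, plus strand, GRCm38). It had 2022, 2422 and 2050 counts in the KO libraries and 2609, 1812 and 506 counts in the WT libraries. After scaling these were 70.3, 54.1 and 50.2 CPM in KO libraries, against 57.6, 42.7 and 8.59 CPM in WT libraries. WT replicate F1 was the low library, the other 5 spanned 42.7 to 70.3 CPM, and the genotypes overlapped there. Means were 58.2 ± 10.6 CPM in KO and 36.3 ± 25.1 CPM in WT libraries (SD, n = 3 each), and the log2 fold change was 1.01 (SE 0.5, edgeR adjusted p = 0.744). Without WT replicate F1, which leaves the genotype contrast to the males, it was 0.31 (edgeR adjusted p = 0.644). Between the 2 female libraries the log2 difference was 2.55, against 0.31 between the male means. The interaction of genotype and sex, fitted in edgeR with 2 residual degrees of freedom, was 2.24 for Tgfa (SE 0.37, unadjusted p = 8.56e-04, adjusted p = 0.196) and did not pass. In that fit 14 genes (0.0739%) passed and 7.42% had an unadjusted p under 0.05, and Tgfa was the only 1 of 9 members under that limit. With 1 female library per genotype the interaction cannot be told apart from what is particular to WT replicate F1.

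The low level of Tgfa in WT replicate F1 went with low levels of striatum and cortex markers in that library. The summed choroid plexus and ependyma genes were also lowest there, at 186 CPM, whereas the paraventricular nucleus and thalamus lists were high. The 12 striatum genes summed to 1919, 1813 and 2204 CPM in the KO libraries, and to 2366, 1478 and 843 CPM in the WT libraries. None of the 12 was at 0, 11 of 12 had a log2 fold change above 0 and 0 passed. Penk, the enkephalin precursor, averaged 437 CPM in KO and 296 CPM in WT libraries, and Ppp1r1b, the dopamine-regulated phosphatase inhibitor of projection neurons, averaged 404 CPM in KO and 336 CPM in WT libraries. The 12 cortex and hippocampus genes summed to 5165, 5790 and 4921 CPM in KO libraries and to 4876, 5011 and 3279 CPM in WT libraries, with all 12 log2 fold changes above 0 and 0 passing. At an unadjusted p under 0.05 stood 5 of these 12, all higher in KO, beside 3.85% of all genes. In WT replicate F1 the sum of the genes listed for the paraventricular nucleus, given above, was the highest of 6. The 7 genes of thalamus and other glutamate neurons summed to 526, 209 and 280 CPM in the KO libraries and 318, 294 and 451 CPM in the WT libraries, second highest in WT replicate F1. The part of these regional differences in the Tgfa values was not tested.

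Genes with a course over the libraries like that of Tgfa were sought among the 12059 tested genes with a mean of at least 5 CPM, by the root mean square difference of centred log2 CPM over the 6 libraries. The nearest was Sike1, a suppressor of an interferon-inducing kinase, at 60.6, 46.1 and 45.8 CPM in the KO libraries and 47.0, 46.1 and 11.1 CPM in the WT libraries (root mean square difference 0.23). Next came Serpinb8 (0.31), Cd4 (0.33), 9130024F11Rik (0.34) and Gas7 (0.36).

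**Figure D3:**
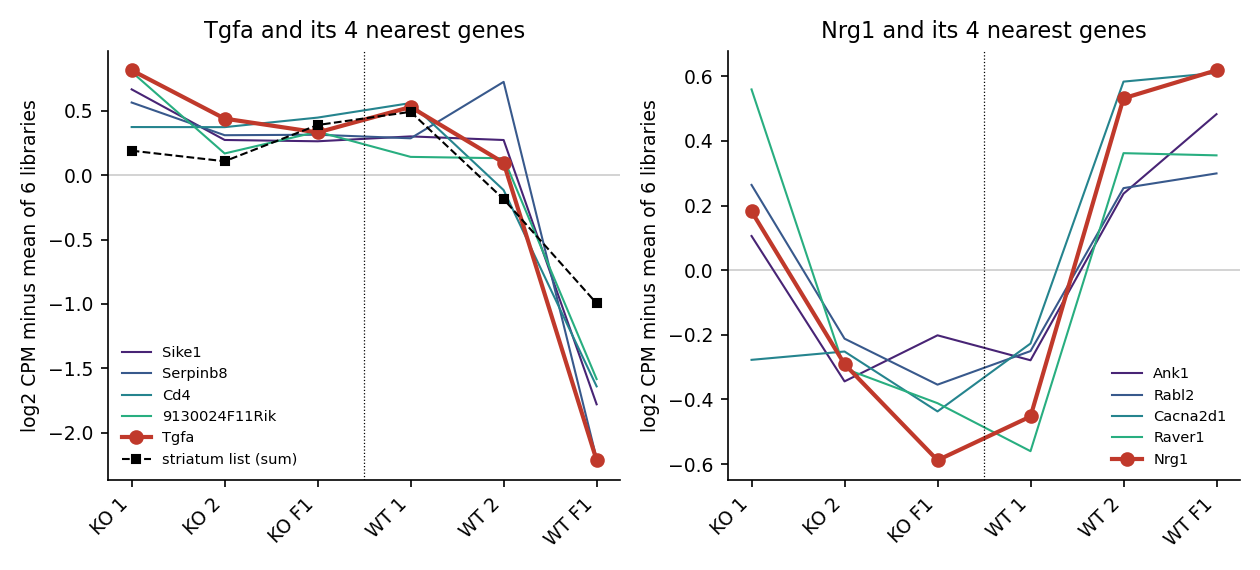
Log2 CPM minus the mean of the 6 libraries, for Tgfa (left) and Nrg1 (right) and the 4 genes nearest to each, with the summed striatum list as a dashed line on the left. KO libraries stand left of the dotted line, and lines only join the values of a gene. The genes were picked for their likeness, so a course shared with the member, such as the low value of Sike1 in WT F1 (11.1 CPM), follows from the choice.

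Hbegf encodes heparin-binding EGF-like growth factor, a ligand of EGFR and ERBB4 (ENSMUSG00000024486, chromosome 18, 36504929 to 36515805, minus strand). Its level was 10.7, 11.9 and 10.8 CPM in the KO libraries, against 12.4, 12.1 and 13.7 CPM in the WT libraries. Every KO value was under every WT value, the only member of 9 without overlap between the genotypes in CPM, while 13.9% of all genes tested had no overlap (7.32% with KO below and 6.61% with KO above). The gap was narrow, 11.9 against 12.1 CPM at its edge. On the authors' TPM, 4 members (Hbegf, Nrg1, Erbb3 and Erbb4) had all KO values below all WT values, as did 21.1% of all genes tested. Means of 11.1 ± 0.65 CPM in KO and 12.7 ± 0.84 CPM in WT libraries (SD, n = 3 each) gave a log2 fold change of −0.19 (SE 0.12, edgeR adjusted p = 0.762), which did not pass.

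Nrg1 encodes neuregulin 1, a ligand of ERBB3 and ERBB4 (ENSMUSG00000062991, chromosome 8, 31814551 to 32884029, minus strand). It stood at 10.7, 7.71 and 6.27 CPM in the KO libraries, against 6.89, 13.6 and 14.5 CPM in the WT libraries. WT replicates 2 and F1 were the 2 high libraries, and WT replicate 1 lay inside the KO range. The means were 8.23 ± 2.258 CPM in KO and 11.7 ± 4.16 CPM in WT libraries (SD, n = 3 each), with a log2 fold change of −0.51 (SE 0.34, edgeR adjusted p = 0.77). Leaving out WT replicate 1 gave −0.85 (edgeR adjusted p = 0.999), leaving out WT replicate 2 gave −0.31, and the males alone gave −0.16.

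The deposited values also differed in the transcript length they assume for Nrg1. Dividing a gene's share of the library's counts by its FPKM gives the length behind that FPKM, and for Nrg1 it was 2.63, 2.68 and 2.61 kb in the KO libraries, against 2.61, 3.52 and 3.56 kb in the WT libraries. The same 2 libraries were thus high in level and long in implied length, and the other 4 lay within 2.61 to 2.68 kb. The span of 1.37-fold was wider than that of 93.1% of the 12591 genes with at least 100 counts in every library. Erbb3, with 1 annotated protein-coding transcript of 6.02 kb, came out at 6.65 to 6.82 kb on this scale, so the absolute lengths are approximate. Nrg1 has 12 annotated protein-coding transcripts, of 0.407 to 5.42 kb, and which of them were counted was not given in the sources used here. Genes nearest to Nrg1 in course over the 6 libraries were Ank1, the erythrocyte ankyrin also made in neurons (root mean square difference 0.2), Rabl2 (0.2), the calcium channel subunit gene Cacna2d1 (0.21) and the splicing cofactor gene Raver1 (0.21). Cacna2d1 stood at 103, 104 and 91.8 CPM in the KO libraries and at 106, 186 and 190 CPM in the WT libraries.

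**Figure D4:**
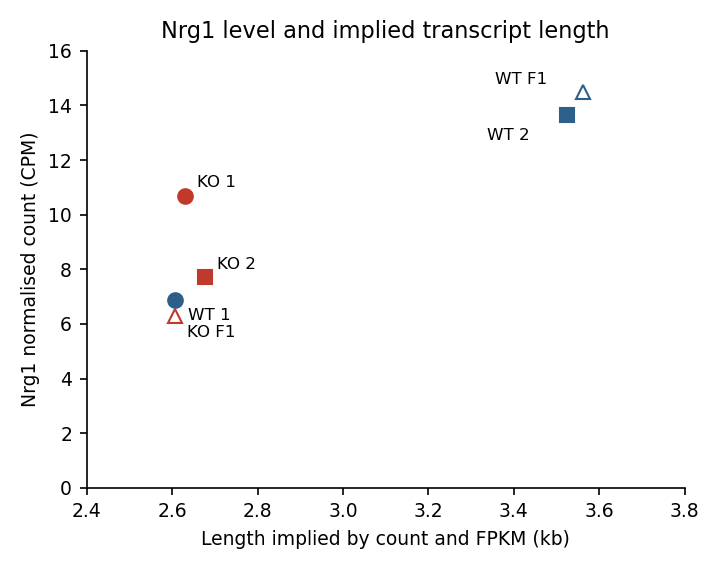
Normalised Nrg1 count (CPM, vertical axis) against the length in kb implied by the deposited count and FPKM (horizontal axis) in the 6 libraries, KO in red and WT in blue. WT 2 and WT F1 lie apart at 3.52 and 3.56 kb with 13.6 and 14.5 CPM.

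Nrg2 and Nrg3, the other neuregulins, varied less. Nrg2 (ENSMUSG00000060275, chromosome 18, 36017707 to 36197380, minus strand) stood at 8.93, 8.83 and 9.98 CPM in the KO libraries, against 9.41, 9.45 and 10.8 CPM in the WT libraries. Its genotypes overlapped, and both female libraries were the highest of their genotype (log2 fold change −0.10, SE 0.12, edgeR adjusted p = 0.851). Nrg3 (ENSMUSG00000041014, chromosome 14, 38368952 to 39473088, minus strand) stood at 58.4, 46.1 and 41.8 CPM in the KO libraries, against 38.2, 42.1 and 37.4 CPM in the WT libraries. KO replicate 1 was the high library, and KO replicate F1 lay just below WT replicate 2. Nrg3 had the smallest unadjusted p of the 9 members (edgeR unadjusted p = 0.053, adjusted p = 0.735), with a log2 fold change of 0.31 (SE 0.13) that was 0.18 without KO replicate 1. On the authors' TPM the genotypes were nearly level, at 28.5 ± 1.7 TPM in KO and 27.9 ± 1.87 TPM in WT libraries (SD, n = 3 each).

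**Figure D5:**
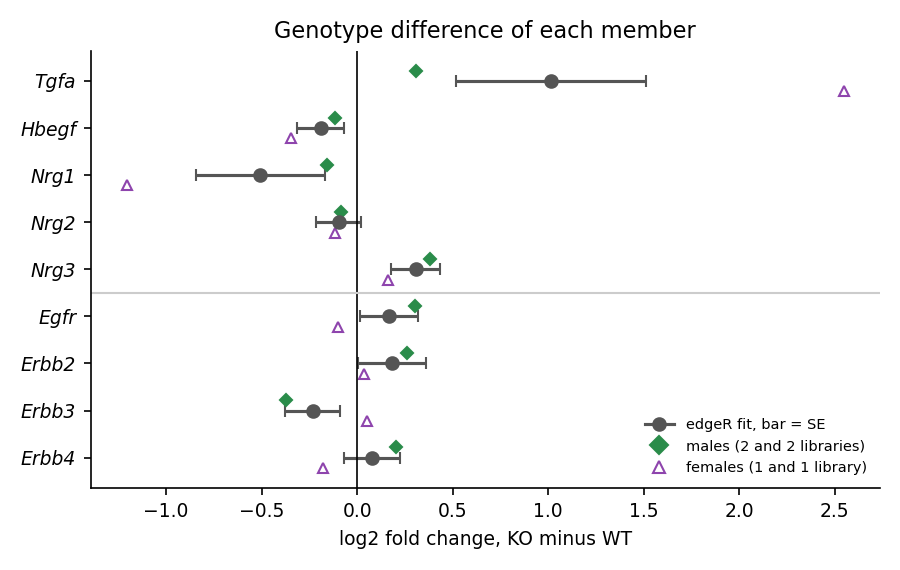
Log2 fold change, KO minus WT, of each member, with circles and bars for the edgeR fit and its standard error, diamonds for the male means and open triangles for the single female pair. The male and female values of Tgfa (0.31 and 2.55) and Nrg1 (−0.16 and −1.21) are the farthest apart.

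Erbb4 encodes the neuregulin receptor of interneurons (ENSMUSG00000062209, chromosome 1, 68032186 to 69108059, minus strand). It was at 96.1, 72.1 and 72.8 CPM in the KO libraries, against 71.7, 74.2 and 82.4 CPM in the WT libraries. KO replicate 1 was high and the remaining 5 libraries overlapped. The log2 fold change was 0.08 (SE 0.15, edgeR adjusted p = 0.906), and without KO replicate 1 it was −0.08. The 10 GABA neuron genes summed to 1504, 1423 and 1472 CPM in KO libraries and to 1411, 1311 and 1335 CPM in WT libraries. All KO sums lay above all WT sums in CPM. On the authors' TPM the sums overlapped, at 1266, 2001 and 1936 in KO and 1948, 1900 and 1870 in WT libraries. Of these 10, 8 had log2 fold changes above 0, 3 had an edgeR unadjusted p under 0.05 and 3 had no overlap between the genotypes, in each case higher in KO. Over all genes, 3.85% were higher in KO at that unadjusted limit, and 6.61% had all KO values above all WT values. Of the 10, 0 passed and none was at 0, with Gad1, the GABA-synthesising enzyme, at 439 CPM in KO and 408 CPM in WT libraries. The part of this difference in the Erbb4 values was not tested.

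Erbb3 encodes the neuregulin receptor of the oligodendrocyte lineage, whose own kinase is weak (ENSMUSG00000018166, chromosome 10, 128567523 to 128589652, minus strand). It stood at 12.99, 11.0 and 13.1 CPM in the KO libraries, against 15.4, 15.7 and 12.6 CPM in the WT libraries. Both male KO libraries lay below both male WT libraries, whereas the female libraries were close to each other, with KO at 13.1 and WT at 12.6 CPM. The log2 fold change was −0.23 (SE 0.14, edgeR adjusted p = 0.756), −0.37 between the male means and 0.05 between the females, and the interaction of 0.43 (SE 0.28, edgeR adjusted p = 0.861) did not pass. The 10 oligodendrocyte genes summed to 3745, 3159 and 3509 CPM in the KO libraries and to 3405, 3479 and 3835 CPM in the WT libraries, so that the sum was highest in WT replicate F1, the WT library with the least Erbb3. Of the 10, 7 had log2 fold changes below 0, 0 passed and none was at 0, with the myelin gene Mbp averaging 949 CPM in KO and 903 CPM in WT libraries. At an edgeR unadjusted p under 0.05 stood 1 of these 10, lower in KO, beside 2.53% of all genes. The 8 genes of oligodendrocyte precursors had a median log2 fold change of −0.02. The part of these cell types in the Erbb3 values was not tested.

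Egfr encodes the receptor for TGF-alpha and HB-EGF (ENSMUSG00000020122, chromosome 11, 16752203 to 16918158, plus strand). Levels were 22.1, 17.2 and 17.4 CPM in the KO libraries, against 15.4, 16.5 and 18.6 CPM in the WT libraries. The male KO libraries lay above the male WT libraries and the female KO library lay below the female WT library (log2 fold change 0.17, SE 0.15, edgeR adjusted p = 0.811). Without KO replicate 1 the log2 fold change was 0.02. The interaction of −0.4 (SE 0.3, edgeR adjusted p = 0.88) did not pass. Astrocyte genes, 10 in number, summed to 4808, 4300 and 3714 CPM in KO libraries and to 3841, 3888 and 3931 CPM in WT libraries. In CPM both Egfr and this sum were highest in KO replicate 1, whereas in TPM both were lowest there, at 3.19 and 1380. Of the 10 genes, 4 had log2 fold changes above 0, 0 passed and none was at 0. The part of the astrocyte genes in the Egfr values was not tested.

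Erbb2, the partner receptor without a ligand of its own, was the least abundant member (ENSMUSG00000062312, chromosome 11, 98412470 to 98437716, plus strand). Between 96 and 186 counts per library gave 3.34, 2.97 and 3.24 CPM in the KO libraries, against 2.65, 2.61 and 3.16 CPM in the WT libraries. WT replicate F1 lay inside the KO range, and the log2 fold change of 0.18 (SE 0.18, edgeR adjusted p = 0.82) did not pass. The gene overlaps Mien1 on the opposite strand, which had 601 to 1901 counts per library. Since the strand setting of the counting is not given, the Erbb2 level is uncertain. The genes overlapping the other members had at most 29 counts in any library.

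The scale decided the place of KO replicate 1. In CPM this library was the highest of 6 for 5 members (Tgfa, Nrg3, Egfr, Erbb2 and Erbb4), and in TPM it was the lowest of 6 for 7 members (all but Tgfa and Nrg1). On log2(TPM + 1) the median over all genes was −0.25, and the log2 fold changes of Egfr, Erbb2 and Erbb4 were −0.19, −0.18 and −0.21, close to that median. Ratios between 2 members within a library avoid this scale but keep the transcript lengths assumed in each library. Of 8 such TPM ratios, the only one without overlap was Nrg1 to Nrg3, at 0.249, 0.233 and 0.211 in the KO libraries, against 0.262, 0.34 and 0.409 in the WT libraries. All KO ratios lay below all WT ratios, with an exact two-sided permutation p of 0.1, the smallest that 3 against 3 libraries allow, and a Benjamini-Hochberg adjusted value of 0.32 over the 8 ratios, which were chosen after the values had been seen. On counts the genotypes overlapped in this ratio. Nrg1 and Nrg3 had 308 and 1680 counts in KO replicate 1, against 312 and 1731 counts in WT replicate 1. The ratio of Tgfa to Egfr was 6.53 ± 0.64 in KO and 4.51 ± 3.16 in WT libraries (SD, n = 3 each, exact permutation p = 0.4). WT replicate F1 set the lower WT mean, at 0.927 against 6.87 and 5.73 in WT replicates 1 and 2. The KO libraries were at 7.14, 6.58 and 5.87. The ratio of Egfr to Erbb4 was 0.272 ± 0.013 in KO and 0.274 ± 0.026 in WT libraries (exact permutation p = 1.0).

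Between the sexes no member passed either. With 2 female and 4 male libraries, 8 genes (0.0422%) passed the edgeR test of females against males and 4.58% had an unadjusted p under 0.05, against 0 of 9 members. The log2 difference, female minus male, lay between −0.21 for Nrg3 and 0.18 for Nrg2, except for Tgfa at −1.27 (SE 0.55, edgeR adjusted p = 0.941), where WT replicate F1 again sets the value.

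The other 6 ligands of the family were scarce. Egf, the founding ligand, averaged 1.43 CPM in KO and 1.54 CPM in WT libraries, Nrg4 1.12 CPM in KO and 1.25 CPM in WT libraries, and betacellulin (Btc) 0.635 CPM in KO and 0.52 CPM in WT libraries. None of these 3 passed, with log2 fold changes of −0.08 for Egf, −0.15 for Nrg4 and 0.29 for Btc. Too few reads fell on the remaining 3 to be tested. Amphiregulin (Areg) had 5, 5 and 0 counts in the KO libraries and 3, 4 and 0 counts in the WT libraries, epigen (Epgn) had 0, 6 and 3 counts in KO and 8, 0 and 0 counts in WT libraries, and epiregulin (Ereg) had 4 counts in KO replicate 2 and 0 in the other 5 libraries. At these depths 3 counts, the limit that a count of 0 allows, correspond to 0.0551 to 0.0854 CPM of the unscaled library total, with counting error alone considered.

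Among 7 measured genes that cut these ligands or serve their cutting, 1 had a log2 fold change above 0 and 6 below, with a median of −0.13, and 0 passed. Adam17 stood at 15.4, 14.5 and 13.9 CPM in the KO libraries, against 17.1, 17.2 and 15.6 CPM in the WT libraries (log2 fold change −0.19, SE 0.11, edgeR adjusted p = 0.747). The KO values lay below the WT values, and the whole-gene count in mixed tissue does not check a deletion in 1 class of neurons. Adam10, the related sheddase, had a log2 fold change of 0.17, and Frmd8, a cofactor of the iRhom-ADAM17 complex, of −0.28. Both were without overlap between the genotypes in CPM and short of the threshold (edgeR adjusted p = 0.747 and 0.735). On the authors' TPM Adam10 overlapped, at 32.3, 40.9 and 44.6 in KO and 44.4, 42.4 and 45.1 in WT libraries. Frmd8 kept all KO values below all WT values on that scale. In CPM, 1 of the 7 genes lay wholly above and 2 wholly below WT in the KO libraries, beside 6.61% and 7.32% of all genes.

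Downstream, genes of receptor turnover and feedback, 16 in number, had 13 log2 fold changes above 0 and a median of 0.06, and 0 passed. Those with the smallest p were Lrig1, which promotes degradation of ErbB receptors, at 45.2 CPM in KO and 59.4 CPM in WT libraries (log2 fold change −0.36, with 0.01 between the male means and −1.12 between the females, where WT replicate F1 was high at 79.8 CPM), the ubiquitin ligase gene Cblb (0.20) and Lrig2 (−0.15). The 29 adaptors and relay kinases had 15 log2 fold changes above 0 and 14 below, with a median of 0.01, and 0 passed. Of these, Dlg4, the postsynaptic scaffold that binds ERBB4, averaged 863 CPM in KO and 726 CPM in WT libraries (0.26), and Mapk3, which encodes an ERK kinase, had a log2 fold change of 0.33. The list of ERK-responsive genes had 17 of 18 log2 fold changes above 0 and a median of 0.16, with 4 members at an unadjusted p under 0.05, all higher in KO, and 0 past the adjusted threshold, beside 3.85% of all genes higher at that unadjusted limit. Egr2, Egr3 and Egr1, zinc-finger factors induced by growth factors and by neuronal activity, led it with log2 fold changes of 1.16, 0.71 and 0.67. The feedback inhibitor genes Spry2 (0.01), Spry4 (−0.05) and Spred1 (0.14), which stand in both of the lists, did not pass. The summed level of the ERK-responsive list was 1224, 1005 and 855 CPM in the KO libraries and 855, 947 and 653 CPM in the WT libraries. The genotypes thus overlapped, and WT replicate F1 had the lowest sum. On the authors' TPM the sums were 549, 688 and 609 in KO and 617, 676 and 469 in WT libraries, and KO replicate 1 no longer led. Neuron markers lay on the same side as the log2 fold changes of this list. The median log2 fold change was 0.33 for the 12 cortex and hippocampus genes and 0.17 for the 10 GABA neuron genes, and their part in the values of the ERK-responsive genes was not tested.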

How the data were processed

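Messenger RNA libraries of 6 samples (3 KO, 3 WT) were read from 1 deposited table. Per the file headers, the authors deposited for each of 51826 Ensembl genes read counts in whole numbers per library, with TPM and FPKM beside them. FastQC, Trimmomatic and bedtools are named in the submitters' processing notes. Aligner, counter, strand setting and build were not given in the sources used here. Gene identifiers matched GENCODE M21 (GRCm38) for 99.6%, and 94.2% of these had identical coordinates, so the deposited coordinates are read as GRCm38.

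Counts were filtered with filterByExpr by genotype, scaled by TMM and tested with edgeR 4.0.16 (R 4.3.3, robust glmQLFit, genotype and sex as terms), with Benjamini-Hochberg adjustment over all 18956 genes at 0.05. SE is the log2 fold change over the square root of F. Alternatives used DESeq2 1.42.0, limma 3.58.1, other scalings, filters and terms, and left out libraries. Members and lists were chosen with earlier results of these data known. All members, the other ligands and Adam17 are named, with up to 3 genes of smallest p per pathway list, up to 3 of highest TPM per cell type list, and the 5 genes nearest to a member spanning over 2-fold. Of the genes this rule names, 2 are not reported here. Sim1, Slc17a6, the Spry and Spred genes, the members' ratios and implied lengths, and the count of members without overlap in TPM, were chosen after their values were seen.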

Additional observations from a re-analysis of the deposited data

How the results depend on the processing

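Between KO and WT, the count of members past the threshold was 0 under each of the 16 alternatives. Of 144 member values under these alternatives, 137 kept their direction, and 7 turned, all without passing in either direction. With library totals alone, which put the median of all genes at −0.17, Egfr was at −0.011 and Erbb4 at −0.10. On log2(TPM + 1), with a median of all genes of −0.25, Egfr was at −0.19, Erbb2 at −0.18 and Erbb4 at −0.21. Erbb4 was also at −0.083 without KO replicate 1 (leaving out each library gave −0.083 to 0.20) and at −0.0063 with WT replicate F1 and KO replicate 1 left out, a fit without a sex term.

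Over all genes the count past the threshold moved from 1 to 4 without a filter on low counts, 75 with DESeq2, 3 without a sex term, 4 on log2(TPM + 1), 18 in males only and 27 without WT replicate F1 and KO replicate 1. Leaving out 1 library at a time gave 0 to 20, with 7 without KO replicate 1, 15 without KO replicate F1, 20 without WT replicate F1 and 0 without any of the other 3. Members with an edgeR unadjusted p under 0.05 numbered 2 without KO replicate 2 (Tgfa and Nrg3), beside 1738 of 19377 genes tested. Without WT replicate 1 they numbered 2 (Tgfa and Nrg1), beside 512 of 19279 genes. On library totals 1 member (Erbb3) stood under that limit, beside 1339 of 18956 genes. Without WT replicate F1 and KO replicate 1 it was again 1 (Erbb3), beside 1245 of 19126 genes. The count of genes past the threshold for sex was 8, with 13 without the filter and 52 with DESeq2, and for the interaction 14, with 1 on library totals, 36 without the filter and 237 with DESeq2. With the replicate number as a replicate block 0 genes passed and 1003 had an unadjusted p under 0.05. Same-numbered libraries did not deviate together (correlations −0.04, 0.02 and 0.01 for numbers 1, 2 and F1), so the numbers are not taken to pair the samples.

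Fits without either female library rest the genotype contrast on males and repeat the male fit. The smallest adjusted p of any member under any alternative was 0.551. The precision is limited by 3 libraries per genotype, and standard errors of the members' log2 fold changes ran from 0.12 to 0.5.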
